A study of Homo sapiens with 4 samples.

Results

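The transcriptome of 6-mercaptopurine (6-MP)-resistant leukemia cells after 48 h with 6-MP alone was compared with that of the same cells given vehicle. The resistant line, Reh-6-MPR, was derived from Reh, a long-established human line of B-cell acute lymphoblastic leukemia (B-ALL), of genotype WT in the labels, by stepwise exposure to rising 6-MP, and was kept in medium without the drug before the experiments. Each treatment is 1 RNA-seq library: PBS (vehicle), 6-MP at 1.0 μg/mL, histidine at 4 mM, and both agents at those doses (the combined treatment). All 4 were cultured in RPMI 1640 with fetal bovine serum and share the resistance of the line, which is 1 line and has no drug-sensitive parent beside it here. Every gene whose FPKM averaged 1 or more across the 4 libraries entered, which left 12750 of the 29833 genes in the table, among them 9997 protein-coding genes. FPKM relates the reads of a gene to its length and to the reads of its library. Differences are those of log2(FPKM + 1), a scale that makes changes of low values look smaller than they are.

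6-MP is a purine analogue and a mainstay of the maintenance therapy of B-ALL. The salvage enzyme HPRT1 converts it to a thio-nucleotide, IMPDH2 and GMPS carry this on to thioguanine nucleotides that are built into DNA, and methylated metabolites formed by TPMT inhibit PPAT, the first committed enzyme of de novo purine synthesis. In sensitive cells, thioguanine paired with thymine in DNA is recognised by mismatch repair proteins, which leads to checkpoint arrest and, through p53, to the expression of genes such as CDKN1A, a cell cycle inhibitor. The comparison asks how much of this program is seen in resistant cells that are given the drug alone.

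The totals by which the FPKM values had been divided were recovered from the values and lay between 12899122 reads (combined treatment) and 15486376 reads (histidine), with 14316493 for vehicle and 15342296 for 6-MP. As there is 1 library of each treatment, no p-value is given for any difference. Intervals of single genes are exact 95% intervals (Clopper-Pearson) of the ratio of recovered reads. Counting error is all they cover, and they set library against library. The defining B-lineage markers were present: 8 of the 9 were in the table and each of these exceeded an FPKM of 1 in vehicle, with a summed FPKM of 1231 in vehicle and 1297 with 6-MP. Of other cell types, the erythroid gene HBB was listed at 0 in both libraries. MPO, a granule enzyme of myeloid cells, had an FPKM of 27.7 in vehicle and 26.4 with 6-MP. The myeloid markers LYZ and CD14 were near the floor, with 8 and 4 reads in vehicle and 3 and 1 with 6-MP. The summed FPKM of T and NK cell markers was 13.4 in vehicle and 13.6 with 6-MP, that of myeloid markers 32.8 and 30.5, that of erythroid markers 0.436 and 0.414, and that of stromal and epithelial markers 0.907 and 1.12. In such bulk libraries, fewer cells of a type and less RNA per cell cannot be told apart.

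Few genes separated the 6-MP library from vehicle. A difference of at least 1 was found in 59 genes that were higher with 6-MP (0.463% of the genes tested) and in 92 that were lower (0.722%), 151 in all (1.18%). The median difference over all genes was 0.0039, and 86.4% of the genes lay within 0.25 of 0. A difference of at least 0.5 was found in 291 higher genes (2.28%) and 311 lower genes (2.44%), which is 4.72% of the genes tested. The histidine library, which shares the vehicle library with this comparison, differed from vehicle by at least 1 in 1.33% of the genes and by at least 0.5 in 4.86%. For the combined treatment, measured against the same vehicle library, these shares were 6.53% and 27.1%.

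The genes past the threshold of 1 were mostly short non-coding RNAs with a handful of reads. Only 15 of the 151 were protein-coding, which is 0.15% of the protein-coding genes tested. The others included 36 miRNA precursors, 26 snRNAs, 20 RNAs of the miscellaneous class, 14 snoRNAs and 12 processed pseudogenes. Of the 136 that were not protein-coding, 102 had fewer than 10 reads in both libraries. Their median was 4 reads in vehicle and 2 with 6-MP. The 3 highest of these biotypes were MIR5692C2 with 0 reads in vehicle and 7 with 6-MP, MIR563 with 0 and 7, and a U6 snRNA with 0 and 6. The 3 lowest were RNU7-151P with 9 reads in vehicle and 0 with 6-MP, ENSG00000255972 with 2 and 0, and SNORD71 with 6 and 0. No fold is given for these genes, as 1 library of each pair is at 0. The kit selected poly(A) RNA, to which most of these small RNAs do not belong.

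**Figure D1:**
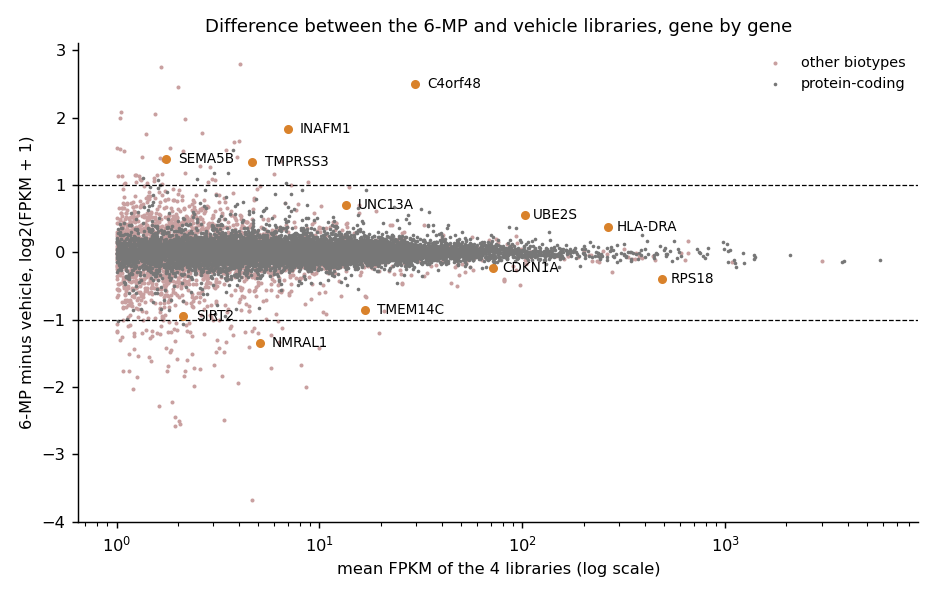
Each point is 1 of the 12750 genes, placed by its mean FPKM over the 4 libraries (log axis) and by the difference between the 6-MP and vehicle libraries in log2(FPKM + 1), with dashed lines at 1 and -1. The cloud narrows with the level, the wide scatter at low FPKM belongs mostly to genes that are not protein-coding, and among protein-coding genes that averaged an FPKM of 10 or more only C4orf48 lies outside the dashed lines.

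The differences narrowed further with expression level. The SD that counting error alone gives to the log2 read ratio also fell with depth. It was 1.06 in genes with up to 10 reads and 0.029 in those over 3000. Of the 4374 protein-coding genes that averaged an FPKM of 10 or more, 13 differed by at least 0.5 and 97.4% lay within 0.25 of 0. Of the 260 that averaged 100 or more, 1 differed by at least 0.5. It was UBE2S, the ubiquitin-conjugating enzyme of the anaphase-promoting complex, named here after its values were seen. Its FPKM was 87.4 in vehicle, 131 with histidine, 129 with 6-MP and 63.4 with both agents, so the vehicle library lay below both single treatments. At the other end of these abundant genes was RPS18, a protein of the small ribosomal subunit, with an FPKM of 500 in vehicle, 476 with histidine, 382 with 6-MP and 585 with both agents. RPS18 has near-identical pseudogene copies, which makes its reads uncertain.

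The scatter between vehicle and 6-MP was as small as that between any pair of the 3 libraries without the combined treatment. In genes with 1000 to 3000 reads, the SD over genes of the log2 read ratio was 0.0925 for 6-MP over vehicle, 0.101 for histidine over vehicle and 0.107 for 6-MP over histidine. Counting error alone gives 0.0521 at this depth. The same SD was 0.398 for the combined treatment over vehicle. In genes with 100 to 300 reads it was 0.264 for 6-MP over vehicle, against 0.156 for counting error and 0.62 for the combined treatment. In every bin over 10 reads, libraries differed by more than counting error alone gives, so the counting intervals given here are narrower than the scatter between libraries. By counting error alone, 1273 genes had an interval above 0 (9.98%) and 1010 an interval below 0 (7.92%).

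The genes that take up and act on the drug were close to equal in both libraries. Of the 13 tested genes of thiopurine activation and inactivation none differed by 0.5, and the median was -0.0025. HPRT1, which activates 6-MP, had an FPKM of 19.3 in vehicle and 18 with 6-MP. TPMT, which methylates it, had 7.48 and 6.63 and was the lowest of the list, with an interval that held 0. IMPDH2 had 28.3 in vehicle and 30.3 with 6-MP, GMPS had 30.1 and 30, ITPA, which hydrolyses inosine triphosphate, had 23.7 and 26.2, and NT5C2, a nucleotidase that is mutated in thiopurine-resistant relapse, had 9.95 and 9.68.

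Transport genes were scarcely different. The equilibrative nucleoside transporter SLC29A1 had an FPKM of 19.1 in vehicle and 17.2 with 6-MP, and the exporter ABCC4, which removes thiopurine nucleotides from cells, had 2.82 and 2.6. The related nucleoside transporter SLC29A2 had the largest difference of the 6 genes tested, with 1.72 in vehicle and 2.64 with 6-MP, a read ratio of 1.53 (interval 1.12 to 2.11). Among the better expressed transporters SLC43A3, which carries purine bases, was the highest at 13.4 and 13.6.

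De novo purine synthesis, the pathway that methylated 6-MP metabolites inhibit, was flat at the level of its mRNAs. All 9 tested enzymes lay between -0.053 and 0.18 with a median of 0.0084. PPAT had an FPKM of 21.3 in vehicle and 21.1 with 6-MP, GART had 27.5 and 27.8, PAICS had 84.7 and 87.9, and ATIC had 54.4 and 54.7. PRPS2, which makes the ribose phosphate donor, was the highest with 18.5 and 21.1, PRPS1 had 44.8 and 43.3, and ADSL, adenylosuccinate lyase, was the lowest with 1.32 and 1.24. In the pair that shares no library with this one, the combined treatment minus histidine, the median of these 9 genes was -0.51. The 18 tested genes of purine salvage ran from -0.16 to 0.084, with APRT, the adenine salvage enzyme, at 40.8 in vehicle and 43.3 with 6-MP and DGUOK, the mitochondrial deoxyguanosine kinase, at 34.3 and 30.9.

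Folate one-carbon genes, which supply formyl groups to purine synthesis, had a median of 0.0059 over 15 tested members, and none differed by 0.5. TYMS, the thymidylate synthase, had an FPKM of 19.2 in vehicle and 18.2 with 6-MP. MTHFD2L, a mitochondrial dehydrogenase of the pathway, was the highest among the better expressed members with 12.3 and 14.4. The 4 histidine catabolism genes were below the expression filter. HAL was represented by 9 reads in vehicle and 8 with 6-MP, AMDHD1 by 14 and 16, FTCD by 4 and 2, and UROC1 by 0 and 1. Differences in these 4 genes were not detectable at this depth.

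No p53 target differed by 0.5 with 6-MP alone, where 1.11% of all protein-coding genes tested did. The 26 tested p53 targets had a median difference of 0.0092, against 1.44 for the combined treatment minus histidine. Of their intervals for 6-MP over vehicle, 3 lay above 0 and 3 below, where 9.98% and 7.92% of all genes had such intervals. CDKN1A, the best known of them, had an FPKM of 48.6 in vehicle, 42.8 with histidine, 41.4 with 6-MP and 155 with both agents. The histidine and 6-MP libraries thus lay slightly below vehicle, and the combined treatment stood apart from the other 3. MDM2, which degrades p53, had 37.1 in vehicle and 39.3 with 6-MP. BBC3, which encodes the apoptosis activator PUMA, was the highest of the list at 2.06 in vehicle, 2.21 with histidine, 2.82 with 6-MP and 15.2 with both agents. The 23 apoptosis regulators tested, which include BBC3, had a median of -0.023, with XIAP, a caspase inhibitor, the lowest of the better expressed at 9.57 in vehicle and 8.06 with 6-MP.

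Genes that read the drug's lesion differed little as well. The 22 mismatch repair genes ran from -0.11 to 0.2, with MSH6, a subunit of the mismatch recognition complex, at an FPKM of 48 in both libraries. RPA3, a subunit of the single-strand binding complex that takes part in this repair, was the highest at 13.2 and 15.3, and PMS1 the lowest at 10.3 and 9.54. Of the 27 tested checkpoint and recombination genes, 26 lay within 0.5 of 0 and the median was 0.00019. The exception was RAD17, a clamp loader of the DNA damage checkpoint, with 5.69 in vehicle, 5.59 with histidine, 8.73 with 6-MP and 8.31 with both agents. Both libraries with 6-MP lay above both without it, by a read ratio of 1.53 (interval 1.34 to 1.76) for 6-MP over vehicle. FANCD2 of the Fanconi anemia pathway was the lowest at 10.4 and 9.32.

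Over all 26 lists with at least 6 tested members, the list medians ran from -0.12 to 0.051, while those of the combined treatment minus histidine ran from -0.7 to 1.44. Of the 649 genes in any list, 6 differed by at least 0.5, which is 0.925%, beside 1.11% of all protein-coding genes tested. These were RAD17 and ATP5F1D, a subunit of ATP synthase, on the higher side, and SIRT2, NDUFA6, RPL36A and RPS10 on the lower side. No list member differed by 1.

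Proliferation genes had medians slightly below 0. The 30 tested mitosis genes had a median of -0.043, with 10 intervals below 0 and 1 above. Their median for histidine minus vehicle, which uses the same vehicle library, was -0.038. CDK1, the mitotic kinase, had an FPKM of 71.6 in vehicle, 62.4 with histidine and 61.1 with 6-MP. PLK1 had 45 and 42, CDC20, the activator of the anaphase-promoting complex, had 157 and 144, and CENPE, a kinetochore motor, had 12.3 and 10.2. CENPA, the centromeric histone, was the highest with 25.7 and 29.5. The differences of the other 4 genes lay between -0.25 and -0.1. With the combined treatment PLK1 was at 9.62 and CDC20 at 35.3. The 32 DNA replication genes had a median of -0.036 with 7 intervals below 0 and none above, against a median of 0.039 for histidine minus vehicle. In this list PRIM1, the primase subunit, was at 12.8 in vehicle and 10.7 with 6-MP while ORC2 of the origin recognition complex was at 12.1 and 13.1. These shares are to be read beside the 7.92% of all genes whose interval lay below 0. Over all list members, 17.4% of the intervals lay below 0 and 12.3% above.

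MYC, the transcription factor of growth, had an FPKM of 70.4 in vehicle, 64.9 with histidine, 65 with 6-MP and 17.7 with both agents, and the 24 tested genes of its list had a median of -0.0015. Among them ODC1, the first enzyme of polyamine synthesis, was the highest with 117 in vehicle and 135 with 6-MP. FBL, the methyltransferase of box C/D snoRNPs, was the lowest with 22.6 and 17.6. INSIG1, which holds back the transcription factor SREBP, had 70.6 and 71. The 31 genes of cholesterol and fatty acid synthesis had a median of 0.0096. They ran from FDFT1, the squalene synthase, at 5.93 and 4.94 to NSDHL, a later sterol enzyme, at 11.3 and 13.3.

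The amino acid stress response controlled by ATF4 had the highest median of the 26 lists, 0.051, with 11 of 27 intervals above 0 and 2 below. Intervals above 0 made up 9.98% over all genes and 12.3% over all list members. The largest differences in it were those of ATF5 and CEBPB. ATF5, a transcription factor that ATF4 induces, had an FPKM of 11.3 in vehicle, 10.8 with histidine, 16.2 with 6-MP and 58.4 with both agents. CEBPB, another factor of this response, had 6.34, 9.24, 9.04 and 19.6 in the same order, so histidine alone was as high as 6-MP alone. ATF4 itself was at 271 and 287, the cystine transporter SLC7A11 at 7.41 and 8.47, and SLC1A5, a glutamine transporter, at 36.4 and 38.9. Markers of a strong response were not higher: DDIT3 had 3.1 and 3.04, TRIB3 had 8.72 and 8.62, and CHAC1, which degrades glutathione, had 8.24 and 7.05.

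Transcripts of the mitochondrial genome had the lowest median, -0.12, and 12 of their 13 intervals lay below 0. Intervals below 0 made up 7.92% over all genes and 17.4% over all list members. In genes over 3000 reads, the SD of the log2 read ratio of 6-MP over vehicle was 0.0741, against 0.029 for counting error. Intervals of such deeply read genes thus leave out 0 at small differences. MT-CO1, a subunit of complex IV, had an FPKM of 6448 in vehicle and 5957 with 6-MP, MT-ND4 of complex I had 2356 and 2300, and MT-ATP8 was the lowest with 21.6 and 16.4. The histidine library, set against the same vehicle library, had a median of -0.093 for these genes. The 82 tested nuclear genes of the respiratory chain had a median of -0.0024, with ATP5F1D the highest (23.4 in vehicle, 32.1 with histidine, 37.1 with 6-MP, 34 with the combined treatment) and NDUFA6 the lowest. NDUFA6, a complex I subunit, had 41 reads in vehicle, 34 with histidine, 15 with 6-MP and 48 with both agents. The 82 tested ribosomal protein genes had a median of -0.029, with 30 intervals below 0 and 11 above, where 7.92% and 9.98% of all genes had such intervals. Their median for histidine minus vehicle was -0.028.

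The genes of the B lineage were close to equal in both libraries. The 30 tested had a median of 0.018 and none differed by 0.5. DNTT, the terminal transferase of precursor lymphocytes, had an FPKM of 556 in vehicle and 625 with 6-MP, PAX5 had 72.3 and 74.4, and CD22, an inhibitory receptor of B cells, was the lowest of the better expressed with 32.9 and 29.8. HLA-DRA, the alpha chain of an MHC class II molecule, was the highest of the list at 205 in vehicle, 181 with histidine, 266 with 6-MP and 404 with both agents. Both libraries with 6-MP lay above both without. The genes of antigen presentation by class II, looked at after this value had been seen, had a median of 0.076 over 7 tested genes, HLA-DRA included. Of their intervals 3 lay above 0 and none below, where 9.98% of all genes had an interval above 0. Their summed FPKM was 464 in vehicle and 529 with 6-MP, and HLA-DRA alone made up most of this difference. CD74 was at 202 in both libraries, HLA-DPA1 at 31.6 and 33.4, and HLA-DPB1 at 4.64 and 5.94. The 29 interferon-stimulated genes had a median of -0.0057. USP18, which restrains interferon signalling, had 7.44 in vehicle and 9.23 with 6-MP, and SAMD9 had 5.31 and 4.28.

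Among the remaining lists, the immediate early genes ran from -0.42 to 0.5, with JUND, an AP-1 subunit, at 20.6 in vehicle and 29.6 with 6-MP, and ZFP36, which destabilises cytokine mRNAs, at 11.5 and 8.38. The list median was 0.011 over 18 genes. Of the 8 genes of sirtuins and HINT1, 7 lay between -0.05 and 0.09, SIRT7 being the highest at 4.84 and 5.2. SIRT5, the desuccinylase of the family, had 3.77 in vehicle and 3.59 with 6-MP, and HINT1, a purine nucleoside phosphoramidase, had 24.1 and 25.2. The exception was SIRT2, the cytosolic deacetylase, with 3.13 in vehicle, 1.87 with histidine, 1.14 with 6-MP and 2.4 with both agents. Glutathione and NRF2 genes (median 0.014), glycolysis and hypoxia genes (-0.0031), heat shock and unfolded protein genes (0.0064), snoRNA host genes (0.0041) and the DNA methylation machinery (-0.0026) had medians near 0 too. GAPDH was at 946 in vehicle and 1048 with 6-MP, and FTH1, the ferritin heavy chain, at 55.9 and 66.9. LDHA, the lactate dehydrogenase, was at 9.95 and 8, KDM3A, a hypoxia-induced demethylase, at 6.53 and 7.68, and PRDX1, a peroxiredoxin, at 398 and 362. SNHG7 was at 14.6 and 18.1, and EPB41L4A-AS1 at 6.69 and 5.63. TET3, which oxidises methylcytosine, was at 13.2 and 13.8.

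The protein-coding genes that did differ were few and mostly of low expression. A difference of at least 0.5 was found in 75 higher and 36 lower protein-coding genes, and 60% of the higher and 86.1% of the lower ones had a mean FPKM under 5, against 32.6% of all protein-coding genes. Of those in the annotation, 13.6% shared exonic bases with another gene on the same strand, against 15% of all protein-coding genes. Their median GC content was 58.5% for the higher genes and 51.4% for the lower ones, against 48%. With the trend on GC content removed, an alternative chosen after seeing the data, 285 genes of all biotypes were at least 0.5 higher and 311 lower. Without this removal the counts were 291 and 311. Over all genes in 5 bins of GC content, the median difference stayed between -0.004 and 0.017. The share at least 0.5 higher was 1.98% in the lowest bin and 3.04% in the highest. The share at least 0.5 lower was 2.37% and 1.62%, with a peak of 3.28% in between.

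In several of the largest differences vehicle was the lowest of all 4 libraries. C4orf48, which encodes a small secreted peptide, had the largest difference of all protein-coding genes, 2.51. Its FPKM was 6.57 in vehicle, 39.8 with histidine, 42 with 6-MP and 29.7 with both agents, so vehicle was the low library and the 3 treated ones lay closer to each other. INAFM1 had 1.42, 7.08, 7.61 and 11.7 in the same order. The mitochondrial genes PDF, a peptide deformylase, and CRLS1, the cardiolipin synthase, and RAB5IF were also lowest in vehicle. PDF had 1.07 in vehicle, 4.31 with histidine, 3.72 with 6-MP and 3.01 with both agents. CRLS1 had 0.456, 1.95, 2.12 and 0.896, and RAB5IF had 2.28, 6.4, 5.98 and 4.9. NDUFAF8, a complex I assembly factor, had 10.1, 21.5, 20.1 and 16.1, EBPL had 16.7, 30.5, 27.1 and 19.4, and SAC3D1, a centrosomal protein, had 8.51, 16, 14.1 and 23.4. In each of these genes vehicle was the lowest of the 4 libraries and the histidine and 6-MP libraries lay close together. PDF shares 48.3% and RAB5IF 39.3% of its exonic bases with another gene on the same strand, so their reads are uncertain.

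In some well-expressed genes on the lower side, the histidine and 6-MP libraries also lay close together below vehicle. This was not so in TMEM14C, described below, the lowest protein-coding gene of those that averaged an FPKM of 10 or more. RCC2, a regulator of chromosome condensation, had an FPKM of 20.4 in vehicle, 12.3 with histidine, 13.6 with 6-MP and 15.7 with both agents. LSM1, which acts in mRNA decapping, had 12.2, 8.48, 8.63 and 11.2, and EEF1B2, an elongation factor subunit, had 27.8, 18.3, 20.1 and 29.9. In RCC2 and LSM1 vehicle was the highest of the 4, with the combined treatment next to it, and in EEF1B2 the combined treatment was higher still. NMRAL1, an NADPH sensor, had the lowest difference of all protein-coding genes, -1.35, with 8.6 in vehicle, 3.52 with histidine, 2.78 with 6-MP and 5.38 with both agents. With 1 vehicle library, an effect common to both agents and a peculiarity of that library cannot be told apart.

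In the genes that follow the 6-MP library was the highest or the lowest of the 4, except in CHAC2. GON7, a subunit of the KEOPS tRNA modification complex, had 28 reads in vehicle, 77 with histidine, 119 with 6-MP and 28 with both agents. REXO4, a putative exonuclease, had an FPKM of 1.66 in vehicle, 1.7 with histidine, 4.67 with 6-MP and 1.99 with both agents. NOP9, a nucleolar protein, had 3.7, 3.83, 1.49 and 3.18. TMEM14C, which moves a heme precursor through the inner mitochondrial membrane, had 15.8, 13.9, 8.24 and 29.1. SURF1, an assembly factor of complex IV, had 4.01, 2.72, 1.59 and 5.42. In REXO4 and NOP9 the combined treatment lay with vehicle and histidine, while in TMEM14C it was as far from them on the other side. SPATC1L had 1.98, 2.41, 5.73 and 4.02, so its 6-MP library was the highest. CWC25, a splicing factor, had 178 reads in vehicle, 123 with histidine, 62 with 6-MP and 92 with both agents. KIAA1143 had 144, 70, 38 and 82, so its vehicle library was set apart too. CHAC2, a glutathione-degrading enzyme, had 330, 298, 248 and 170, and was lowest with both agents.

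A further set of genes was higher with 6-MP both without and with histidine. The combined treatment minus histidine measures the addition of 6-MP on top of histidine and shares no library with 6-MP minus vehicle. Of the 75 higher protein-coding genes, 28 (37.3%) were also at least 0.5 higher in that pair, where 15.1% of all protein-coding genes were, and 14 (18.7%) were at least 0.5 lower, where 6.27% were. Both directions were thus more frequent among these low-expressed genes than among all. Of the 36 lower genes, 9 (25%) were at least 0.5 higher and 7 (19.4%) at least 0.5 lower in that pair. Over the 9567 genes with at least 100 reads in every library, Pearson's r between both differences was 0.0851 and Spearman's rho 0.0883, a description across genes, which are not replicates.

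SEMA5B is the first member of this set to be described. It encodes a semaphorin, a membrane protein of axon guidance, and lies at chr3:122909082-123028605 on the minus strand (GRCh38). It was represented by 12 reads in vehicle, 8 with histidine, 244 with 6-MP and 550 with both agents, which is an FPKM of 0.0984, 0.0607, 1.87 and 5.01. The libraries with 6-MP were high and those without it were near the limit of detection. SEMA5B thus passed the filter, a mean FPKM of 1, only through the libraries where it was high. The read ratio of 6-MP over vehicle was 19 (interval 10.7 to 37.2). The next is TMPRSS3, a membrane-bound serine protease, with an FPKM of 1.55 in vehicle, 1.26 with histidine, 5.46 with 6-MP and 10.4 with both agents, and a read ratio of 3.52 (interval 2.84 to 4.39). In both genes vehicle and histidine were alike, 6-MP was higher, and the combined treatment was the highest.

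With intervals above 0 in both pairs, 27 protein-coding genes were at least 0.5 higher in both, the values by which they were picked. Histidine alone was within 0.25 of vehicle in 13 of them. In others it was as high as 6-MP alone: INAFM1 and SAC3D1 are described above, SAMD1 had 6 reads in vehicle, 55 with histidine, 48 with 6-MP and 103 with both agents, and GTF2IRD2B had 83, 170, 168 and 368. UNC13A, which primes synaptic vesicles, was the one with the most reads, 1419 in vehicle, 1473 with histidine, 2585 with 6-MP and 3116 with both agents. C1QL1, a secreted synaptic organiser, had an FPKM of 2.56, 3.59, 6.28 and 14.9 in the same order of libraries. SEZ6L, a neuronal membrane protein, had 24 reads in vehicle, 44 with histidine, 110 with 6-MP and 402 with both agents. In vehicle and histidine its FPKM was below 1, so SEZ6L passed the filter only through the libraries with 6-MP.

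The genes that follow were picked after their values were seen. IRX3, a homeobox factor, had an FPKM of 7.9 in vehicle, 8.05 with histidine, 12.1 with 6-MP and 34.2 with both agents. IGFBP4, which binds insulin-like growth factors, had 10.7, 11.2, 16.2 and 71.5. FCGRT, the Fc receptor that recycles IgG, had 1.34, 1.39, 2.41 and 15.4. In these 3 genes the libraries without 6-MP differed by less than 0.1 on the log2 scale, and the 6-MP library lay between them and the combined treatment. KLHDC7A had 47 reads in vehicle, 56 with histidine, 116 with 6-MP and 432 with both agents. It too had an FPKM below 1 in vehicle and histidine and passed the filter only through the libraries with 6-MP. SOWAHD had 78, 97, 172 and 206 reads. CKB, the brain creatine kinase, had an FPKM of 6.07, 7.56, 9.11 and 16. Read ratios of 6-MP over vehicle in these 6 genes ran from 1.5 to 2.3, while those of the combined treatment over histidine ran from 2.11 to 11.1.

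The upstream sequences of 4 genes of this set are shown because these genes were higher together with 6-MP while their start regions differ widely in CpG content. They are the 250 bases before the start site in RefSeq (GRCh38.p14), 5′ to 3′ on the gene's strand, with every CG dinucleotide in capitals. Only entries within 50 bases of the deposited gene start were used, which matched 14 of the 27 genes. SEMA5B is at chr3:123028606-123028855 on the minus strand, UNC13A at chr19:17688355-17688604 on the minus strand, IGFBP4 at chr17:40443200-40443449 on the plus strand and KLHDC7A at chr1:18480680-18480929 on the plus strand.
SEMA5B: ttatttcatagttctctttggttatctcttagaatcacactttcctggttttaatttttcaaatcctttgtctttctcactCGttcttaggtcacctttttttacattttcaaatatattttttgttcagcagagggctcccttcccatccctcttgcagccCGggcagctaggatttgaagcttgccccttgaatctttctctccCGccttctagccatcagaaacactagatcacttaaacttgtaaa
UNC13A: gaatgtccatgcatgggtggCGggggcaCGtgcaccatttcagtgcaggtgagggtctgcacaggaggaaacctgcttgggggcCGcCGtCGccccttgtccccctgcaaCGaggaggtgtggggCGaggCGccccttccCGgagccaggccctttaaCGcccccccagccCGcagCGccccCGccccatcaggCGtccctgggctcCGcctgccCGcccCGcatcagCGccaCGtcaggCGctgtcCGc
IGFBP4: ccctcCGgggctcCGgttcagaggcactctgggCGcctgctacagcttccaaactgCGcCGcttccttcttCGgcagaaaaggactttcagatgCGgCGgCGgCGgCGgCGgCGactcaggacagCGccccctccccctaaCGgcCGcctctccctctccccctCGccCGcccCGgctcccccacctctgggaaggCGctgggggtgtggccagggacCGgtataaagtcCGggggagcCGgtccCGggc
KLHDC7A: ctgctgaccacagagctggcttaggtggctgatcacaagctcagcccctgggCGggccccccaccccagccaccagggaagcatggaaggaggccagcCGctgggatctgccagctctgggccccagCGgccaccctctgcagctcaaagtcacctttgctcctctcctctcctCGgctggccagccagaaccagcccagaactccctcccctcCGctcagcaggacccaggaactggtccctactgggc
The SEMA5B window holds 3 CG, a number that 77.1% of the promoters in the table reach or exceed, and KLHDC7A holds 5 (65.7%). UNC13A holds 21 (30.2%) and IGFBP4 24 (23.7%). The median over all promoters is 11, and 93.9% hold at least 1. CG reads the same on both strands. The count describes these letters and says nothing of methylation, which was not measured.

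**Figure D2:**
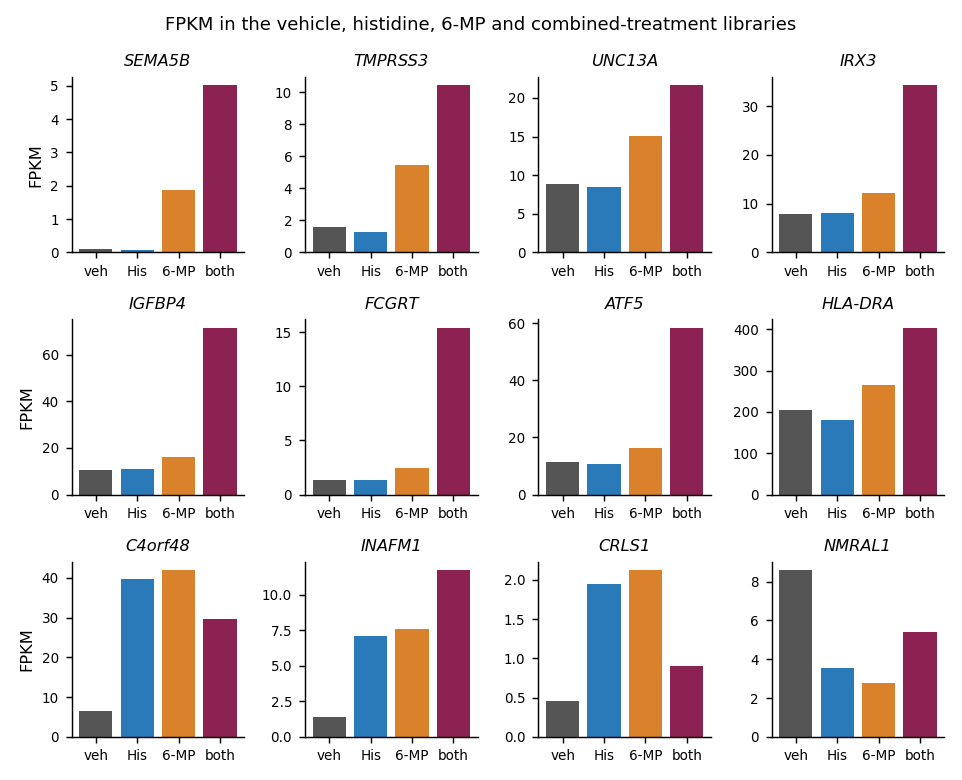
Bars give the FPKM of 12 genes in the vehicle (veh), histidine (His), 6-MP and combined-treatment (both) libraries, 1 library each, with no error bars as there are no replicates. In the first 8 genes both libraries with 6-MP lie above both without it, while vehicle is the lowest library in C4orf48, INAFM1 and CRLS1 and the highest in NMRAL1. In CRLS1 the combined treatment lies closer to vehicle than to the single treatments.

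On the lower side, 6 protein-coding genes were at least 0.5 lower in both pairs with intervals below 0. H2BC4 and H2BC9 encode core histones H2B, and had 28 and 113 reads in vehicle, 26 and 80 with histidine, 11 and 70 with 6-MP, and 1 and 21 with the combined treatment. The other members were PRKACA, the catalytic subunit of protein kinase A (219, 196, 77 and 58 reads in the order vehicle, histidine, 6-MP and combined treatment), SPC25, a kinetochore protein (131, 230, 67 and 108), TIMM22 of the mitochondrial inner membrane translocase (100, 97, 45 and 41) and RPS10 (61, 54, 33 and 15). H2AC13, a histone H2A gene and the third lowest protein-coding gene by difference, had 15, 9, 4 and 2 reads. Replication-dependent histone genes have near-identical copies. Of the 11 such genes tested, a group looked at after these values were seen, 3 were lower by at least 0.5. None was higher by 0.5, and the median was 0.028. Over all genes tested, 2.44% were at least 0.5 lower and 2.28% at least 0.5 higher. RPS10 shares 39.4% of its exonic bases with another gene on the same strand, so its reads are uncertain.

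The genes with the largest differences in the combined treatment leaned only weakly the same way with 6-MP alone. In the 29 protein-coding genes at least 2 higher in the combined treatment than with histidine, 6-MP minus vehicle had a median of 0.07. Of their intervals 9 lay above 0 (31%), against 11.6% of all protein-coding genes. These 29 genes had few reads, with a median of 81.5 against 658 over all protein-coding genes. As the filter is a mean over the 4 libraries, a gene high only with the combined treatment can pass it. In the 71 genes at least 1 lower, the median was -0.041 and 21 intervals lay below 0 (29.6%), against 8.82%. Intervals above 0 were also more frequent in these 71 genes, 15.5% against 11.6%, and their median number of reads was 1888 against 658. The medians between these ends followed in order: -0.012 for genes 0.5 to 1 lower, 0.005 for those within 0.5, 0.025 for those 0.5 to 1 higher and 0.038 for those 1 to 2 higher. The steps are small beside the scatter of single genes between libraries, which does not measure how exact a median over many genes is. The order of the medians was not tested.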

How the data were processed

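The 4 libraries were poly(A) RNA (TruSeq Stranded mRNA kit), processed by a company, and the authors deposited FPKM values per gene. The submitters' processing notes name Trimmomatic, HISAT2, Cufflinks and HTSeq and the build GRCh38. Their versions, the annotation release and the strand setting of the counting are not given in the sources used here, so genes that overlap or have near-identical copies are uncertain. FPKM is relative to the library total, so a shift in abundant genes moves all others.

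Whole reads were recovered from the steps of the deposited FPKM values for all 29833 genes (28905 found in GENCODE 29). For 1394 genes the shortest length was multiplied by up to 6 to lie near the annotated length, a rule set after the recovered sums had been compared with the library totals. Recovered reads summed to 99.9% of each total. Groups follow the treatment label, with 1 library each, so no count test was run. Differences of log2(FPKM + 1) were counted at 1 and 0.5 in genes that averaged an FPKM of 1 or more, and read ratios were given exact Clopper-Pearson 95% intervals. Genes were grouped in 31 lists. Named genes are the 10 highest and 10 lowest protein-coding genes, the 5 highest and 5 lowest that averaged an FPKM of 10 or more, the 3 highest and 3 lowest of other biotypes, a set of thiopurine, folate, p53, mismatch repair, mitosis, sirtuin and histidine genes, and the highest and lowest member of each list at an average FPKM of 5 or more. Other list members given as examples and those named as such were chosen after their values were seen. Some genes that these rules name are not reported here. The members, lists and rules were chosen with earlier results of these data known. Alternatives were another pseudocount, other filters, median-ratio scaling, scaling to equal totals (TPM) and, added after the data were seen, a read minimum, genes without shared exons and removal of the GC trend. Scripts were tested on simulated data. Analyses ran in Python 3.11.15 with scipy 1.17.1 (intervals), pandas 2.3.3, numpy 2.4.6 and matplotlib 3.10.9.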

Additional observations from a re-analysis of the deposited data

Results flagged for a closer look

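In 7 named genes the difference with 6-MP pointed one way without histidine and the other way with it, by at least 0.5 in both pairs of libraries and with counting intervals that left out 0. They are listed by 6-MP minus vehicle and then by the combined treatment minus histidine. CRLS1, the cardiolipin synthase, was at 1.1 and -0.64, EBPL at 0.67 and -0.63, GON7 at 1.53 and -0.89, and UBE2S, a ubiquitin-conjugating enzyme, at 0.56 and -1.01. NDUFA6 of complex I was at -0.86 and 0.52, SURF1, which assembles complex IV, at -0.95 and 0.79, and TMEM14C, a heme precursor carrier, at -0.86 and 1.01. In CRLS1, EBPL and UBE2S the histidine library was about as high as the 6-MP library, and both lay above vehicle. Of the 75 higher protein-coding genes, 14 (18.7%) were at least 0.5 lower in the second pair, against 6.27% of all. Of the 36 lower ones, 9 (25%) were at least 0.5 higher in it, against 15.1%. With 1 library per treatment the change of direction was not tested.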

How the results depend on the processing

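The counts of genes past a threshold rest on low values. With a pseudocount of 0.1, 170 genes were at least 1 higher and 219 lower, and 535 and 512 passed 0.5. Without a filter on low values, 162 were at least 1 higher and 182 lower. With values scaled to TPM, which equalises the totals and also makes all values larger against the pseudocount of 1, 141 were at least 1 higher and 174 lower, and 499 were at least 0.5 higher. With an FPKM that averaged 5 or more the counts were 7 higher and 10 lower at 1, and 45 and 37 at 0.5. Protein-coding genes alone gave 12 and 3 at 1, and 75 and 36 at 0.5. An average of at least 50 reads, chosen after seeing the data, gave 12 and 2 at 1, and 67 and 29 at 0.5. The other 15 counts were within 1.5 times those reported, namely all those under median-ratio scaling, without genes that share exonic bases or after removal of the GC trend, and that of genes at least 0.5 lower under TPM scaling. All 130 alternative list medians stayed within the spread of their lists, a wide bound for medians near 0. Some of them changed sign. With an FPKM that averaged 5 or more, the median of glutathione and NRF2 genes went from 0.014 to -0.016. That of snoRNA host genes went from 0.0041 to -0.018, and that of sirtuins and HINT1 from -0.0025 to 0.033. No named gene past 1 changed sign. Of 417 alternative differences of named genes, 18 moved by more than their counting interval, all under a pseudocount of 0.1 or TPM scaling, SEMA5B among them, at 3.31 and 2.62. No paired analysis was possible because the treatments are single libraries. For the same reason no replicate could be left out, and spread between cultures is not known.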
